A study of Mus musculus with 6 samples.

Results

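The C/EBP family (CCAAT/enhancer-binding proteins) was followed in mouse primary hepatocytes exposed to interleukin-1β (IL-1β). The family was taken as the rows of the expression table whose symbol is Cebpa, Cebpb, Cebpd, Cebpe, Cebpg or Cebpz, which gave 6 genes of the 23282 in the table. Of these 6, 5 passed the filter on low counts and were tested together with 11657 genes in all, and Cebpe did not pass it.

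C/EBP proteins are basic leucine zipper (bZIP) transcription factors that bind DNA as dimers formed within the family or with other bZIP proteins. In the liver, C/EBPα is tied to the differentiated state and to metabolic genes, while C/EBPβ and C/EBPδ are known as activators of acute phase genes downstream of IL-1 and IL-6. C/EBPγ lacks a classical activation domain and acts largely as a partner of other bZIP proteins, C/EBPε belongs to granulocyte maturation, and Cebpz, despite its name, encodes a nucleolar protein without a bZIP domain.

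The cells were isolated from livers of C57BL/6N mice by collagenase perfusion and plated. The control group (n = 3 samples) was left untreated and the IL-1β group (n = 3 samples) received recombinant IL-1β for 24 h. All 6 samples are described with the same strain, isolation method and culture procedure. The labels give neither the age or sex of the animals nor the dose, and do not say whether the samples came from separate animals or cultures, so p-values measure only the spread between these samples. RNA was counted by QuantSeq, which sequences a short tag near the 3′ end of each polyadenylated transcript. Totals ran from 9538741 to 11105408 counts per sample. CPM are counts per 1000000 counts of a library, with library sizes scaled by the TMM method of edgeR. On this scale 3 counts, taken as the limit of detection, corresponded to 0.269 to 0.321 CPM. Libraries of the same group differed by more than sampling noise, as the same library sequenced again would not. This does not show that they came from separate animals or cultures.

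The hepatocyte label was compared with marker genes. The 10 hepatocyte markers summed to 22081 to 22565 CPM in the controls and to 17883 to 18751 CPM after IL-1β. Of the 10, 8 were lower and none higher. Over all genes tested, 6.44% were lower and 6.97% higher at an adjusted p under 0.05 (edgeR). Kupffer cell and macrophage markers, 11 of 15 tested, summed to 248 to 279.9 CPM and 254 to 287 CPM, with none of the 11 passing the test and Cd163 at 0 in every sample. Endothelial markers (6 of 6 tested, 1 higher and 2 lower) lay at 44.2 to 49.4 and 44.3 to 47.1 CPM, stellate cell markers (1 of 6 tested, not passing) at 18.1 to 21.3 and 19.9 to 26.1 CPM, and cholangiocyte markers (2 of 5 tested, 1 lower) at 316 to 329 and 236 to 239.7 CPM. Lymphocyte markers reached at most 0.101 CPM. The part of other cell types in the results below was not tested, and in bulk samples fewer cells of a type and less RNA per cell cannot be told apart.

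Promoter sequences of the members were read from RefSeq (GRCm38.p6), because Cebpa, Cebpb and Cebpd moved in the same direction. Only Cebpa, Cebpb and Cebpg, 3 of the 6, had an entry. The windows therefore leave out Cebpd, the member that rose most, and include Cebpg, which did not pass the test. Each is the 250 bases before the start site, 5′ to 3′ on the strand of the gene. Capitals mark the TATA box (TATAAA), the core of a cyclic AMP response element (TGACG, or CGTCA on the other strand) and the CCAAT box (here ATTGG, its reverse complement).
Cebpa promoter, chr7:35119043-35119292, plus strand: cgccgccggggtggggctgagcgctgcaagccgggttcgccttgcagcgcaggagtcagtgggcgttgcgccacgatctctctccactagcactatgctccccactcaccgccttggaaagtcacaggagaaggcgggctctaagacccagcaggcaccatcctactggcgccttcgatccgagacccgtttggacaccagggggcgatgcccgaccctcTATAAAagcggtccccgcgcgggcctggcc
Cebpb promoter, chr2:167688665-167688914, plus strand: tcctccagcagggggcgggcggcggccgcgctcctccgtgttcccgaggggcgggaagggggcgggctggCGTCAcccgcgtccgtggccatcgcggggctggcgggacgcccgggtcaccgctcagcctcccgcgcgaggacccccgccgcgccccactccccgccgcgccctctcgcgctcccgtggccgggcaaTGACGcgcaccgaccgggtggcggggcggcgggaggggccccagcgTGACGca
Cebpg promoter, chr7:35056567-35056816, minus strand: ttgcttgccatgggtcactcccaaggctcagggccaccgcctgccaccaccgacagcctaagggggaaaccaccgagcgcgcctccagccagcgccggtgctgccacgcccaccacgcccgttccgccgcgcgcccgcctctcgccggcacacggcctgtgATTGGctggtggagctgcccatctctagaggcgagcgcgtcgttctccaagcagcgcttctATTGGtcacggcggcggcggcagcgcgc

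The 3 promoters are rich in G and C, at 66.4% for Cebpa, 81.6% for Cebpb and 70.8% for Cebpg against a median of 52.4% over 32851 mouse promoters of the same length. All motifs were searched on both strands. Cebpa held TATAAA beginning at position -30 from the start, a motif found in 12.4% of all promoters. Cebpb held TGACG 3 times, beginning at positions -180, -53 and -7 (17.8% of promoters hold at least 1), and the GC box GGGCGG 5 times (32.7%). Cebpg held the CCAAT box 2 times, beginning at positions -89 and -28 (33.8%). Loose NF-κB-type letters (GGGNNNNNCC) occurred in all 3, 3 times in Cebpa, 3 times in Cebpb and 4 times in Cebpg, partly overlapping one another and a TGACG match of Cebpb, and 45.8% of all promoters hold them. The C/EBP-type letters TTNNGNAA (36.8% of promoters) and the STAT-type letters TTCNNNGAA (7.02%) were in none of the 3 windows. The shares count promoters with at least 1 match among all promoters, not among promoters equally rich in G and C. They are therefore no measure of how unusual the matches are in these 3 windows. These matches are letters in a window and were not tested for binding.

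Cebpa, Cebpb and Cebpd were higher after IL-1β and no member was lower. Cebpd rose most, 4.84-fold, followed by Cebpb at 1.68-fold and Cebpa at 1.27-fold. Cebpg and Cebpz did not pass the test. Among all genes tested 13.4% passed the adjusted p threshold of 0.05, with 6.97% higher and 6.44% lower, whereas 3 of the 5 tested members were higher. In 4 of the 5 members, Cebpg included, all IL-1β samples lay above all control samples, against 14% of all genes tested. The median log2 fold change over all genes was close to 0 (-0.0018). All adjusted p-values are Benjamini-Hochberg values over the 11657 genes, from the quasi-likelihood test of edgeR.

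Cebpd encodes C/EBPδ, a factor that is low in resting liver and inducible by inflammatory cytokines. It lies on chromosome 16 (chr16:15887286-15889545, plus strand, mm10) and has 1 exon. The controls held 341, 509 and 561 counts, or 32.0, 45.6 and 56.5 CPM, and the IL-1β samples held 1947, 2424 and 2225 counts, or 208, 233 and 207 CPM. The groups did not overlap, and the lowest IL-1β sample was far above the highest control. The mean went from 44.7 ± 12.3 to 216 ± 14.7 CPM (SD, n = 3 each), a log2 fold change of 2.28 (SE 0.121, 95% interval 2.02 to 2.52, adjusted p = 2.34e-13, edgeR). Only 0.643% of the tested genes had a larger log2 fold change. Leaving out any single sample kept the log2 change between 2.08 and 2.47. An exact two-sided permutation test of 3 against 3 samples gave p = 0.1, the smallest it can give.

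Spidr, a gene of DNA repair on the opposite strand (chr16:15889225-16146851, minus strand), overlaps the 3′ end of Cebpd by 321 bases in the intervals of the table and by 1808 bases in the GENCODE M21 gene models, which extend Cebpd to position 15891031. It was singled out after its values were seen. Spidr held 5.26, 7.16 and 6.95 CPM in the controls and 16.9, 18.8 and 13.6 CPM after IL-1β, again without overlap. In 14% of all genes tested the IL-1β samples likewise all lay above the controls. The log2 fold change of Spidr was 1.34 (SE 0.195, adjusted p = 1.4e-05, edgeR). Whether counting used the strand is not given in the sources used here, so reads of the 2 genes in the shared stretch cannot be told apart.

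Cebpb encodes C/EBPβ, which binds the promoters of many acute phase genes (chr2:167688915-167690432, plus strand, 1 exon). The controls held 1062, 847 and 659 counts, or 99.8, 75.8 and 66.4 CPM, and the IL-1β samples 1332, 1252 and 1541 counts, or 142, 120.3 and 143 CPM. Control 1 was the highest control and still lay below every IL-1β sample. The mean went from 80.7 ± 17.2 to 135 ± 13 CPM (SD, n = 3 each), a log2 fold change of 0.74 (SE 0.108, 95% interval 0.52 to 0.97, adjusted p = 1.37e-05, edgeR), with 3.94% of tested genes above it. Control 1, which had the most Cebpb among the controls, had the least Cebpd, and control 3 was the reverse. A test on log2(CPM + 1) that takes the spread from each gene alone did not call Cebpb after adjustment over all genes (0.76 on the log2 scale, adjusted p = 0.14).

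Cebpa encodes C/EBPα, the member tied to hepatocyte differentiation (chr7:35119293-35121928, plus strand, 1 exon). The controls held 557, 556 and 528 counts, or 52.3, 49.8 and 53.2 CPM, and the IL-1β samples 585, 635 and 791 counts, or 62.5, 61.0 and 73.5 CPM. The groups did not overlap, and IL-1β sample 3 stood above the other IL-1β samples. The mean went from 51.8 ± 1.78 to 65.7 ± 6.83 CPM (SD, n = 3 each), a log2 fold change of 0.34 (SE 0.0948, 95% interval 0.15 to 0.54, adjusted p = 0.0142, edgeR), and 11.6% of tested genes were above it. The call rested on single samples. Without control 2 the adjusted p was 0.0598 (log2 change 0.32), and without IL-1β sample 3 it was 0.13 (log2 change 0.26).

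Cebpg encodes C/EBPγ and lies 62.7 kb from Cebpa on the opposite strand (chr7:35046422-35056566, minus strand, 2 exons). It held 107, 116 and 109.8 CPM in the controls and 117, 124 and 127 CPM after IL-1β. All 3 IL-1β samples were above all 3 controls, by a small margin. The mean went from 111 ± 4.6 to 123 ± 5.54 CPM (SD, n = 3 each), and the log2 fold change of 0.15 (SE 0.075) did not pass the test (adjusted p = 0.246, edgeR). Its 95% interval, -0.01 to 0.30, runs from a decrease of 0.57% to an increase of 23.2%, and with total-count scaling the log2 fold change was 0.09.

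Cebpz, the nucleolar protein, is carried by chromosome 17 (chr17:78919003-78937070, minus strand, 16 exons). It held 227, 249.7 and 262 CPM in the controls and 236, 263 and 246 CPM after IL-1β, and the groups overlapped. The log2 fold change was 0.01 (SE 0.0706, 95% interval -0.13 to 0.16, adjusted p = 0.955, edgeR). Cebpzos lies on the opposite strand, shares 2046 bases with Cebpz and was at 48.1 ± 1.15 and 49.8 ± 6.38 CPM (SD, n = 3 each, adjusted p = 0.839, edgeR).

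Cebpe, the granulocyte member, is annotated at chr14:54710363-54712174 (minus strand, 2 exons). It held 2 counts in control 3 and 0 in the other 5 samples, at or under the limit of detection in every sample, and no fold change is given. Of the neutrophil and granulocyte precursor markers 11 of 12 were in the table, and Mpo, Elane, S100a9, Ltf, Ngp and Retnlg were at 0 in all 6 samples. The summed level of the list was 0.094 to 0.716 CPM in controls and 3.31 to 5.95 CPM after IL-1β. The 1 gene tested, S100a8, had no count in any control and passed the filter only through the IL-1β samples. Its call as higher is therefore no separate result.

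**Figure D1:**
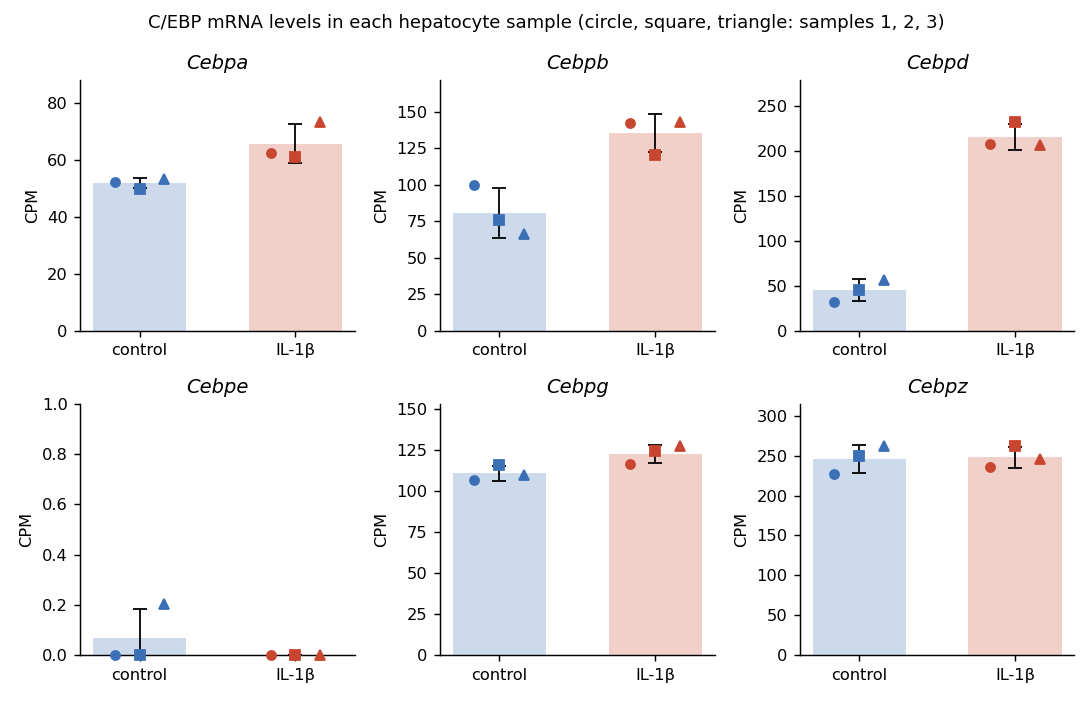
Level of each of the 6 C/EBP genes in CPM (vertical axes from 0) in the 3 control and 3 IL-1β samples. Points are samples, bars the group mean and error bars the SD. The groups are separate for Cebpa, Cebpb, Cebpd and Cebpg, and they overlap for Cebpz and for Cebpe, which has 2 counts in a single control.

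**Figure D2:**
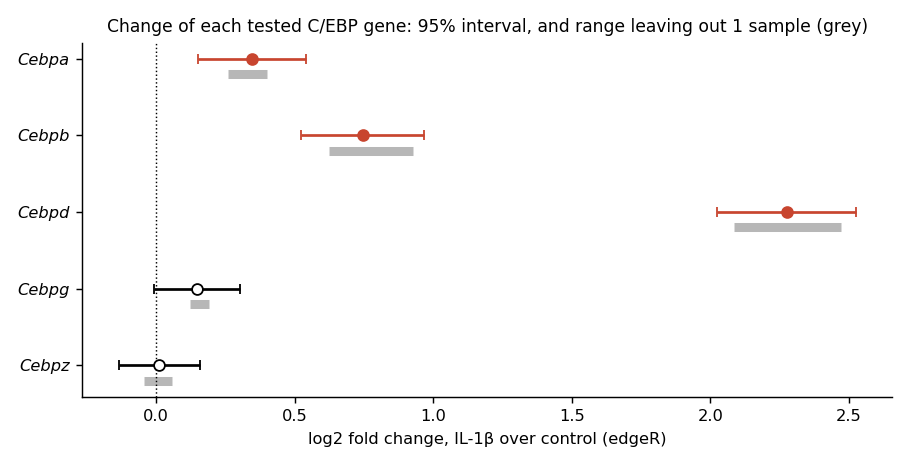
Log2 fold change of IL-1β over control for the 5 tested members (horizontal axis, edgeR) with its 95% interval, filled red where the adjusted p is under 0.05, and in grey the range of the estimate when each sample is left out in turn. The interval of Cebpd, 2.02 to 2.52, lies wholly above that of Cebpb, 0.52 to 0.97, and those of Cebpg and Cebpz include 0.

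Levels of different genes were set side by side per kilobase of the annotated transcript length. In controls the order was Cebpz (60.5 ± 4.35 CPM per kb), Cebpb (53.1 ± 11.3), Cebpg (23.6 ± 0.978), Cebpd (19.8 ± 5.43) and Cebpa (19.6 ± 0.677), all SD with n = 3 samples. Samples overlapped between the neighbours Cebpz and Cebpb, between Cebpg and Cebpd, and between Cebpd and Cebpa. After IL-1β the order was Cebpd (95.6 ± 6.49 CPM per kb), Cebpb (89.1 ± 8.58), Cebpz (60.9 ± 3.25), Cebpg (26.1 ± 1.18) and Cebpa (24.9 ± 2.59). Here Cebpd and Cebpb overlapped, as did Cebpg and Cebpa. A 3′ tag count does not grow with transcript length, so the division by length places long transcripts too low. The order without this division, which suits these data better, was different. In CPM the controls then ran from Cebpz through Cebpg, Cebpb and Cebpa to Cebpd, with overlap only between Cebpa and Cebpd. After IL-1β Cebpd stood next below Cebpz and above Cebpb without overlap, and the overlapping neighbours were Cebpb and Cebpg.

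Summed over the 5 bZIP members (Cebpa, Cebpb, Cebpd, Cebpe and Cebpg), the family held 291, 287 and 286 CPM in the controls and 529.7, 538 and 551 CPM after IL-1β, 1.87-fold more. The controls lay within a few CPM of one another, while their Cebpb and Cebpd levels varied in opposite order. Cebpd supplied 11.0%, 15.9% and 19.8% of these reads in the controls and 39.3%, 43.3% and 37.5% after IL-1β. The share of Cebpg went from a mean of 38.5% to 22.7% and that of Cebpa from 18% to 12.2%, without overlap between the groups, even though neither gene's level was lower. The share of Cebpb, 28% and 25.1%, overlapped between the groups (exact permutation test, two-sided, p = 0.5). For the sum and for the shares of Cebpa, Cebpd and Cebpg the same exact test gave p = 0.1, the smallest possible with 3 against 3 samples.

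**Figure D3:**
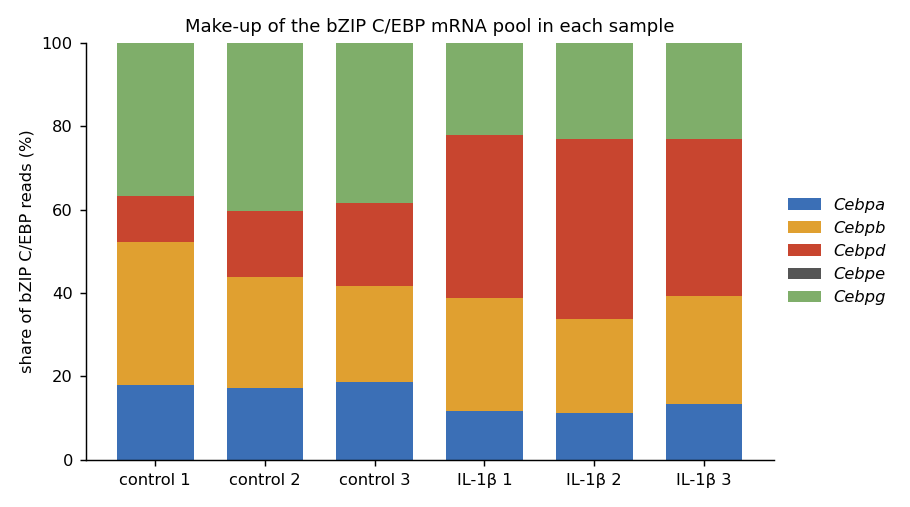
Share of the summed bZIP C/EBP reads (vertical axis, %) taken by each member in each of the 6 samples. Cebpd takes 11.0% to 19.8% in the controls and 37.5% to 43.3% after IL-1β, while Cebpe is too rare to be seen.

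Ratios of members within a sample do not depend on how libraries are scaled. The Cebpd to Cebpa ratio was 0.612, 0.915 and 1.06 in the controls and 3.33, 3.82 and 2.81 after IL-1β, 3.92-fold higher. The Cebpd to Cebpb ratio was 0.321, 0.601 and 0.851, then 1.46, 1.94 and 1.44, 2.92-fold higher. The Cebpb to Cebpa ratio was 1.91, 1.52 and 1.25, then 2.28, 1.97 and 1.95, 1.34-fold higher. In these 3 ratios every IL-1β sample lay above every control, narrowly so for Cebpb to Cebpa, whose log2 difference of 0.42 was 0.27 without control 3. The Cebpg to Cebpa ratio was 2.04, 2.33 and 2.06 in the controls and 1.86, 2.03 and 1.73 after IL-1β, with the nearest samples almost equal. Each of the 4 ratios gave an exact two-sided permutation p = 0.1 (adjusted 0.1), which 3 against 3 samples cannot go below.

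Among the signalling genes upstream of C/EBP expression, 19 of 20 were tested, 6 were higher and none lower, against 6.97% higher and 6.44% lower over all genes tested, and the median log2 fold change was 0.20. Il1r1, the signalling receptor for IL-1, held 33.1, 40.0 and 36.6 CPM in controls and 162, 152 and 142 CPM after IL-1β (log2 change 2.05, SE 0.0898, adjusted p = 6.35e-15, edgeR). Socs3, a feedback inhibitor of gp130 and JAK signalling, went from 18.8 ± 2.19 to 54.8 ± 2.44 CPM (log2 change 1.54). Nfkbiz, an atypical IκB protein that acts as a nuclear cofactor of NF-κB, went from 56.5 ± 2.87 to 109.4 ± 3.19 CPM (log2 change 0.95). The transcription factor Stat3 and the IL-6 receptor gene Il6ra rose less, by 0.37 and 0.45 on the log2 scale (adjusted p = 0.000472 and 0.0078, edgeR), and Il6ra lost its call without IL-1β sample 3 (log2 change 0.36). The groups did not overlap for any of these 5 genes, which were named for their small adjusted p. The other called gene of the list did overlap. Over all genes tested, 14% had every IL-1β sample above every control.

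Of 13 bZIP relatives and partners, 10 were tested, 3 were higher and none lower, beside the same 6.97% and 6.44% of all genes tested (median log2 fold change 0.18). Atf3, a stress-inducible bZIP factor, held 21, 24.5 and 24.5 CPM in the controls and 42.1, 39.4 and 39.3 CPM after IL-1β (log2 change 0.79, SE 0.113, adjusted p = 1.38e-05, edgeR). Nfe2l2, which encodes the antioxidant regulator NRF2, went from 206 ± 5.96 to 285 ± 9.99 CPM (log2 change 0.47) and Atf4, the effector of the integrated stress response and a partner of C/EBPβ and C/EBPγ, from 568 ± 28.6 to 717 ± 29.9 CPM (log2 change 0.34). The groups were separate for these 3 genes, which were named for their small adjusted p. In 14% of all genes tested every IL-1β sample lay above every control. Ddit3, which encodes the C/EBP-binding protein CHOP, was at 120.4 ± 6.75 and 126 ± 2.89 CPM (adjusted p = 0.65, edgeR), and Nfil3 and Hlf did not pass either (log2 changes 0.36 and 0.28, the second falling to 0.09 without control 1). Nfil3, a circadian and cytokine-responsive repressor, passed only without control 3 (log2 change 0.49).

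A list of regulators of C/EBP proteins or their translation held 19 symbols, of which 18 were in the table and 17 were tested. The symbol not found is another name of a listed gene, and the list also held Cebpzos, the gene opposite Cebpz. Of the 17, 3 were higher and 2 lower, where 13.4% of all genes were called in either direction. The median was near 0 (-0.003), and its sign changed when single samples were left out (-0.01 to 0.04). Id2, an inhibitor of helix-loop-helix factors, held 96.2, 103.8 and 112 CPM in the controls and 51.1, 59.8 and 54.5 CPM after IL-1β (log2 change -0.92, SE 0.0891, adjusted p = 2.34e-08, edgeR). Calr, which encodes calreticulin, rose by 0.34 on the log2 scale, and Smarca2, an ATPase of the SWI/SNF complex, was lower (log2 change -0.31, adjusted p = 0.00739, edgeR, lost without IL-1β sample 3). The Tribbles pseudokinases Trib3 and Trib1, the second of which directs C/EBPα to degradation, were higher by 0.33 and 0.25 (adjusted p = 0.0236 and 0.0484, edgeR). Trib1 lost its call when any sample other than control 3 was left out (log2 change down to 0.15 without control 1) and Trib3 without control 1, control 2, IL-1β sample 2 or IL-1β sample 3, and both lost it with libraries scaled by their total counts (adjusted p = 0.151 and 0.0676, edgeR). Trib1 also lost it with upper-quartile scaling (adjusted p = 0.0826, edgeR) and in DESeq2 (adjusted p = 0.0552).

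The remaining lists hold genes known to be bound or controlled by C/EBP proteins, which also have other regulators. Of 24 acute phase genes linked to C/EBPβ and C/EBPδ, 20 were tested, 15 were higher and none lower, against 6.97% of all genes tested that were higher, and the median log2 fold change was 0.95. The 15 include Csf3, which had no count in any control and passed the filter only through the IL-1β samples. The call of Csf3 is therefore no separate result. Saa3, an inducible serum amyloid A, held 759.7, 1246 and 1295 CPM in the controls and 16581, 18829 and 18278 CPM after IL-1β (log2 change 4.02, SE 0.127, adjusted p = 1.12e-17, edgeR). Lcn2, which encodes the iron-siderophore binder lipocalin 2, went from 873 ± 77.3 to 3519.8 ± 304 CPM (log2 change 2.01), Saa4 from 92.8 ± 20.6 to 447 ± 22.3 CPM (2.27) and Saa1 from 2597 ± 134 to 6370.3 ± 199 CPM (1.29). The groups did not overlap for any of the 4, which were named for their small adjusted p, while another called gene of the list did overlap. Every IL-1β sample lay above every control in 14% of all genes tested. Reads of Saa1 and its near-identical copy may have been divided between them. With Csf3 placed at its lower bound against 3 counts per control sample, the median stayed at 0.95.

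Of 20 hepatocyte genes linked to C/EBPα, 16 were tested, 2 were higher and 9 lower, against 6.97% and 6.44% of all genes tested, and the median log2 fold change was -0.36. Adh1, the liver alcohol dehydrogenase, held 163, 149 and 139.6 CPM in the controls and 41.5, 38.9 and 46.9 CPM after IL-1β (log2 change -1.83, SE 0.09, adjusted p = 5.61e-14, edgeR). The 2 that rose were Hamp, which encodes the iron hormone hepcidin and is itself inducible by inflammation, from 6.92 ± 0.323 to 68.4 ± 14.4 CPM (3.30), and Il1rn, the IL-1 receptor antagonist, from 102 ± 14 to 291 ± 14.3 CPM (1.52). Groups were separate for the 2 that rose, as they were in the same direction for 14% of all genes tested. All 3 genes were again named for a small adjusted p. Hepatocyte markers, which share Alb, Ttr, Tat and Cps1 with this list, were lower in 8 of 10 cases, and their part in the result was not tested. Cebpa itself was not lower.

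**Figure D4:**
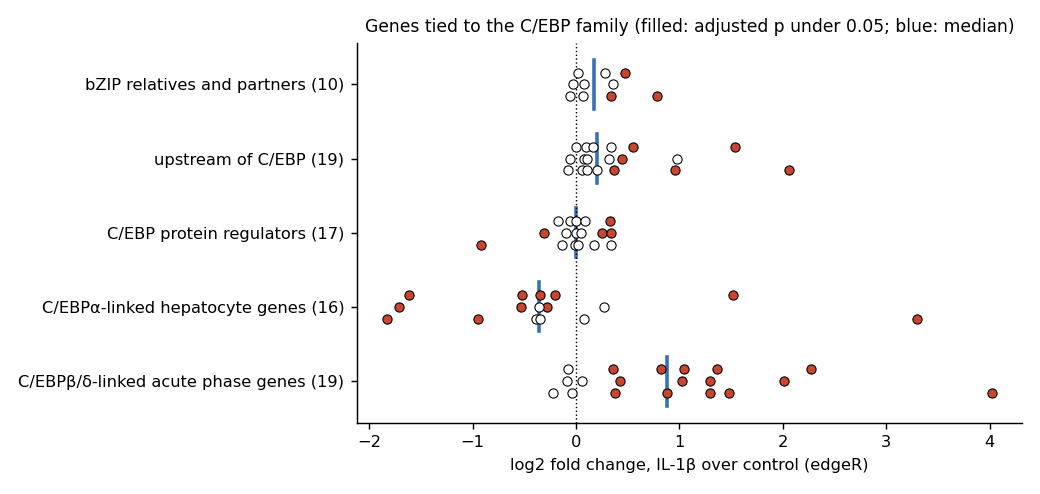
Log2 fold change of IL-1β over control (horizontal axis, edgeR) for the tested genes of 5 lists tied to the C/EBP family, with the number drawn in brackets. Points are genes, filled where the adjusted p is under 0.05, and the blue bars are medians. Csf3, with no control count, is not drawn, which puts the median of the acute phase genes at 0.88, and the medians of the lists run down to -0.36 for the C/EBPα-linked genes.

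Genes whose pattern over the 6 samples was most like that of each member were found by the root mean square difference of log2(CPM + 1) values, each centred on its own mean, among 7979 genes with at least 10 CPM. For Cebpd these were Saa4 (0.102), Irak3 (0.102), an inhibitor of IL-1 receptor signalling, and Pdzrn3 (0.136). For Cebpb they were Hacd2 (0.117), Ptpn14 (0.122) and Gstm6 (0.134). For Cebpa they were Aldoa (0.0247), Rbmx (0.0523) and Rps20 (0.0528). For Cebpg they were Apon, Rars and Keap1 (0.0151 to 0.0208) and for Cebpz Rpl5, Rpp14 and Me1 (0.0186 to 0.0214), 6 genes that, like these members, did not pass the test. The measure includes the difference between the groups, so for a member that changed it favours genes with a similar log2 fold change. For Cebpd, at 2.28, these were 2.27 for Saa4, 2.24 for Irak3 and 2.52 for Pdzrn3. A small difference is also easily reached by a gene that varies little, so the root mean square differences are descriptions.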

How the data were processed

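RNA from 3 untreated and 3 IL-1β-treated hepatocyte samples was sequenced by QuantSeq as single-end reads of 75 bases. The authors aligned reads with Bowtie2 to mm10 (GRCm38) and deposited raw counts per gene; the counting tool and its strand and multi-mapping settings are not given in the sources used here. Columns with the authors' fold changes, p-values, normalized values and group means were not used. A deposited transcript length, which is no expression value, gave CPM per kb. The labels' design text names fewer samples per group than the 3 it lists, and all 3 were used.

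Counts were tested with edgeR 4.0.16 (filterByExpr, TMM scaling, quasi-likelihood test, R 4.3.3) and Benjamini-Hochberg adjustment over 11657 genes, and CPM used TMM library sizes. Alternatives were DESeq2 1.42.0, other scalings and filters, limma 3.58.1 and Student's test on log2(CPM + 1), a replicate block, and each sample left out. Scripts were tested on simulated data. Single values and ratios had exact two-sided permutation tests (scipy 1.17.1). Ribosomal Rn45s took 11.7% to 14.2% of counts. Same-numbered samples of both groups did not deviate together (correlations 0.075, 0.027 and -0.005), so the numbers were not taken as pairs. Intervals and limits of detection cover counting error and sample spread only, without molecular identifiers.

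Members and lists were chosen with earlier results of these data known. Named genes are all members, the listed genes with the smallest adjusted p (at most 4 to 6 per list), the 3 most alike per member, and marker genes at 0. The values of 1 gene that this rule names are not reported here.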

Additional observations from a re-analysis of the deposited data

How the results depend on the processing

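Over the 10 alternatives and the 6 single-sample omissions, Cebpd kept its direction and its call (log2 change 2.08 to 2.47, adjusted p at most 0.0261 outside the omissions). Student's test on log2(CPM + 1) called 547 genes instead of 1563 and 1 member instead of 3, and gave Cebpa 0.33 (adjusted p = 0.153) and Cebpb 0.76 (adjusted p = 0.14). It also gave Stat3, Il6ra, Atf4, Calr, Smarca2, Trib3 and Trib1 adjusted p-values above the threshold (0.116, 0.096, 0.0636, 0.0823, 0.0656, 0.128 and 0.364). Leaving out single samples gave 1131 to 1596 genes and 2 to 3 members called, Cebpa between 0.26 and 0.40, with its call lost without control 2 or IL-1β sample 3, and Cebpb between 0.62 and 0.93. Cebpz, near 0, turned to -0.017 with upper-quartile scaling and to -0.043 with total-count scaling, and ran from -0.044 to 0.056 without single samples. The median of the C/EBP protein regulators ran from -0.009 to 0.04 in the same omissions, turning positive in 4 of them. The causes were not tested. Total-count scaling moved the share of higher calls from 52.0% to 39.6% and the median of all genes to -0.055.

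A replicate block, with samples paired by number, called 1671 genes and gave Cebpa 0.34 (adjusted p = 0.0105), Cebpb 0.76, Cebpd 2.29, Cebpg 0.15 and Cebpz 0.01, and it changed no call of a member (edgeR). With 3 samples per group no exact test can go below p = 0.1.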
